A study of Triticum aestivum with 2 samples.

Results

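The outermost zone of cross-sections from the distal region of bread wheat roots was a ring of Stereo-seq capture spots set at the presumed position of the epidermis. Stereo-seq catches polyadenylated RNA from a frozen section on a chip of barcoded spots, and each captured molecule is counted once as a molecular identifier (MID) with the position of its spot. The zone was set by position alone. On the chip of the distal root region, 3 sections were enclosed by circles, the relative radius of a spot was its distance from the centre over the circle's radius, and spots at a relative radius of 0.85 to 1 formed the zone while those below 0.85 formed the inner part. The zone held 509006 spots with at least 1 MID of a nuclear gene (128310, 184874 and 195822 in circles 1, 2 and 3), against 1355207 in the inner part, 42247665 on the whole chip and 60772898 on the 2 chips of the series. The plants were *Triticum aestivum* of the cultivar Chinese Spring, grown as seedlings. Seeds were soaked cold in the dark, had a hot water bath, germinated on medium plates and were moved to soil, and root cross-sections were cut at 10 μm. One chip carried the root cap region and the other the distal root region, so that each region was 1 library without a replicate, and the sources used here do not give the number of plants behind the sections. The zone is a position that can hold several cell types, and fewer cells of a type and less RNA per cell cannot be told apart in its counts. Sections of 1 chip share that library and are not replicates. No test was therefore made and no p-value is given. Limits in brackets are exact 95% binomial (Clopper-Pearson) limits, which cover counting error only.

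The root epidermis is the layer that meets the soil. Its cells take up water and ions, some of them grow out as root hairs, and their outer walls and secreted proteins face microbes, which is why cell wall proteins, chitinases, peroxidases and transporters are well known epidermal products. Beneath it lie the cortex, the endodermis with its barrier to free diffusion, and the stele with pericycle, xylem and phloem. Cereals also keep defence compounds named benzoxazinoids as inactive sugar conjugates, and a beta-glucosidase releases the active form. Wheat is hexaploid, so many genes have copies on chromosomes of the A, B and D subgenomes. Reads shared by near-identical copies may have been assigned to the wrong one, so values of single copies are less certain than those of the set.

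The zone held 318351 of 1357144 MIDs in circle 1 (23.5%), 483052 of 1723340 in circle 2 (28.0%) and 610179 of 2194634 in circle 3 (27.8%). Together this was 1411582 of 5275118 MIDs, or 26.8%, on 27.7% of the spot positions. In circles 2 and 3 the density of MIDs in the zone was nearly that of the inner part, with ratios of 1.01 and 1, whereas in circle 1 the ratio was 0.798. Circle 1 stands apart before any gene is considered. All 8 of its equal sectors had a ratio below 1, from 0.662 to 0.981, against 3 sectors in circle 2 and 4 in circle 3, so that part of its zone may lie beyond the edge of the section, which was not tested. Several results are therefore also given per circle, while other pooled values can rest largely on circle 1. Another section of the chip, not used by the rule, was enclosed by a circle drawn by hand on the map of all MIDs. It held 28.2% of 1957997 MIDs in its zone, with a density ratio of 1.02, and is given below as circle 4. It belongs to the same library.

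The chip also carried many MIDs beyond the tissue. In a ring at a relative radius of 1.2 to 1.5 around circles 1 to 3, the density of all nuclear genes was 72.4% of that in the zone, and 75.4% to 80.8% of the ring's MIDs were exonic, compared with 81% to 86.9% in the zone and 83.6% to 88.3% in the inner part. The zone thus lay between the inner part and the ring in exonic share in each circle. Genes of low-confidence models, whose IDs end in LC, followed the reverse order, with 12.3% to 16.9% of MIDs in the zone, 11.2% to 14.2% in the inner part and 17.7% to 22.4% in the ring. These shares move with the zone, and their part in the values of single genes was not tested.

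The label of the zone was checked first with 2 marker genes and the list they come from. That list holds the 18 epidermis genes which the study chose on sections of these chips, so it is no independent evidence of position. TraesCS2D03G0324500 had 58 of 126 MIDs in the zone of circle 1 (46.0%), 512 of 661 in circle 2 (77.5%), 593 of 830 in circle 3 (71.4%) and 701 of 931 in circle 4 (75.3%). Its neighbour TraesCS2D03G0324400 had 50 of 104 (48.1%), 388 of 499 (77.8%), 373 of 560 (66.6%) and 525 of 666 (78.8%). Both were far above the share of all genes in every circle, and least so in circle 1. Zone enrichment is expressed below as the log2 ratio of the zone MIDs of a gene to those it would have if it followed all nuclear genes, circle by circle. For the markers it was 1.38 [1.34, 1.43] and 1.34 [1.28, 1.40], which is 2.61-fold and 2.53-fold. A gene found only in the zone would reach 2.09, 1.83 and 1.85 in circles 1, 2 and 3. If spread over the circles like all genes it would reach 1.90, or 3.74-fold, and both markers lay below this ceiling.

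Over the 18 genes, 6166 MIDs lay in the zone where 2331 were expected, a zone enrichment of 1.40 [1.38, 1.42]. It was 1.03 in circle 1, 1.5 in circle 2, 1.37 in circle 3 and 1.44 in circle 4. Of the 18, 17 were higher in the zone in all 3 circles, as were 14.4% of the 7816 genes with at least 100 MIDs, and 13 were at least 1.5-fold higher in each circle, as were 1.68% of those genes. The single exception, TraesCS2B03G1540400, had only 7 MIDs in circle 1, 1 of them in the zone, and had values of 1.5 and 1.40 in circles 2 and 3. Pooled values of the 18 genes ran from 1.34 to 1.55, with TraesCS2A03G0309100LC highest at 169 of 209 MIDs in the zone. The list's defining markers were thus present in the zone, and most of their MIDs lay there.

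**Figure D1:**
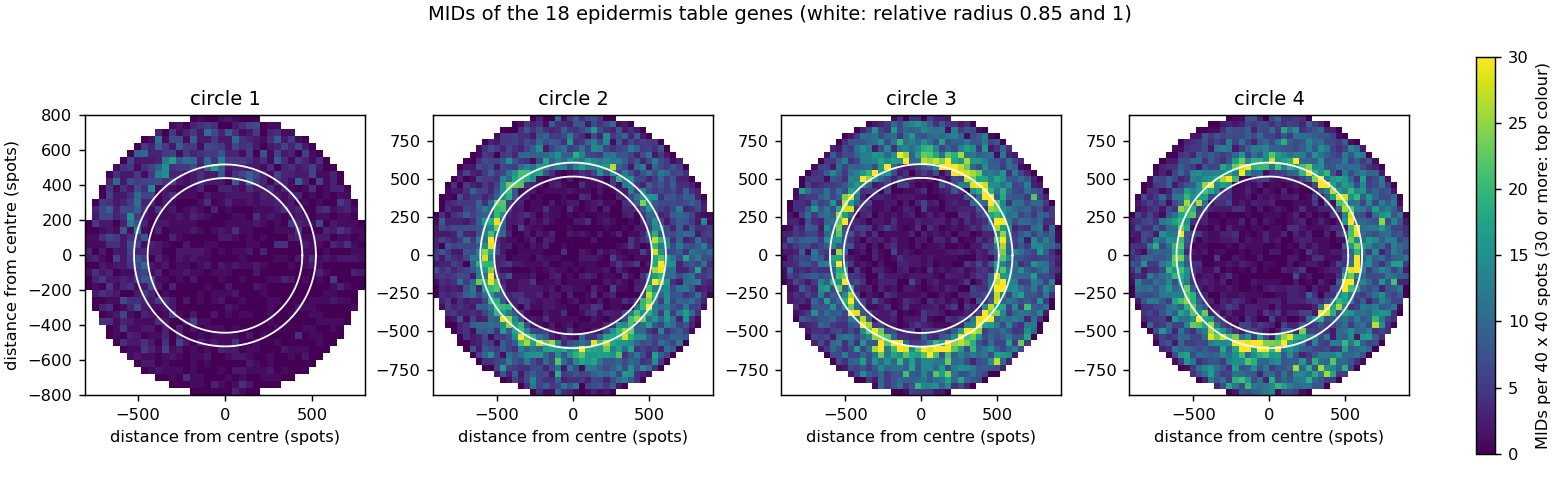
MIDs of the 18 epidermis table genes in squares of 40 by 40 spots around the centre of each circle (x and y: distance from the centre in spots). White lines mark relative radii of 0.85 and 1. A closed bright ring lies on the zone of circles 2, 3 and 4, while circle 1 has few such MIDs, with its brighter squares beyond its upper left edge.

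The rise at the inner edge of the zone was steep. In circle 2 the 18 genes had 16.1 MIDs per 10000 spot positions at a relative radius of 0.80 to 0.85, then 51.0, 96.3 and 111 in the next 3 steps of 0.05. In circle 3 the same steps gave 28.9, 66.8, 98.7 and 119, and the highest value, 124, lay just outside the circle at 1 to 1.05. Below a relative radius of 0.5 the density was 6.02 in circle 2 and 9.69 in circle 3. Circle 4 peaked at 137, at 0.95 to 1. In circle 1 the densities were 10.3, 14, 14.1 and 14.4, with the highest value of 20.3 at 1.10 to 1.15, beyond the zone. Moving outward therefore did not bring circle 1 near the level of the others. Outside the circles the list was still at 36.1 and 47.6 per 10000 positions at 1.45 to 1.5 in circles 2 and 3, which was above its density in their centres.

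**Figure D2:**
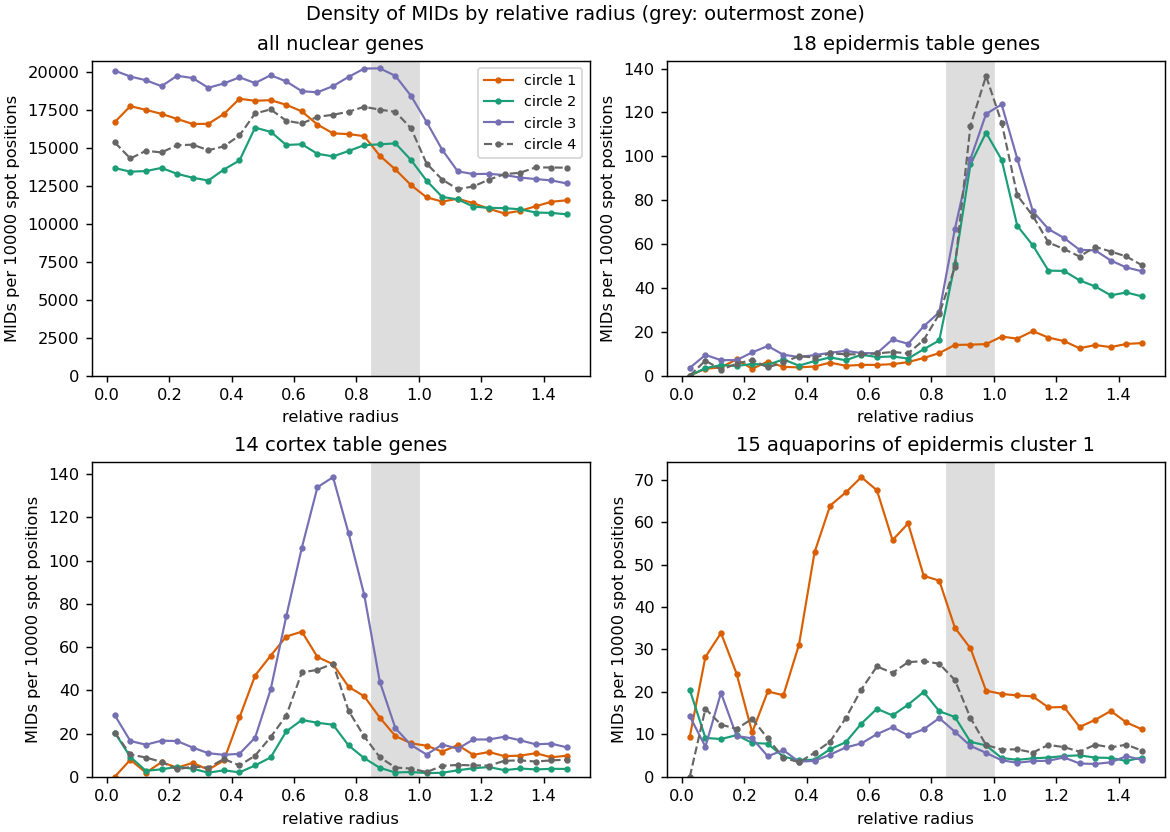
MIDs per 10000 spot positions (y) by relative radius in steps of 0.05 (x) for all nuclear genes, the 18 epidermis table genes, 14 cortex table genes and 15 aquaporins, with a line per circle and the zone in grey. The epidermis list peaks at the outer edge of circles 2, 3 and 4 and stays at or below 20.3 in circle 1, whereas cortex genes peak further in, and both they and the aquaporins go down across the zone.

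Sectors of the zone differed as well. Per 10000 zone MIDs, the 18 genes had 38.3 to 85 MIDs over the 8 sectors of circle 2 (median 56.2), 19.3 to 72.6 in circle 3 (median 47.2) and 48.7 to 82.3 in circle 4 (median 57.3), and 2.97 to 18.9 in circle 1 (median 9). Every sector of circles 2, 3 and 4 was above the highest of circle 1. Within circle 3, the sector with 19.3 had 200 MIDs of the cortex table list in its zone, whereas the sector with 72.6 had 60. How closely the circle follows the layers in each sector was not tested.

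**Figure D3:**
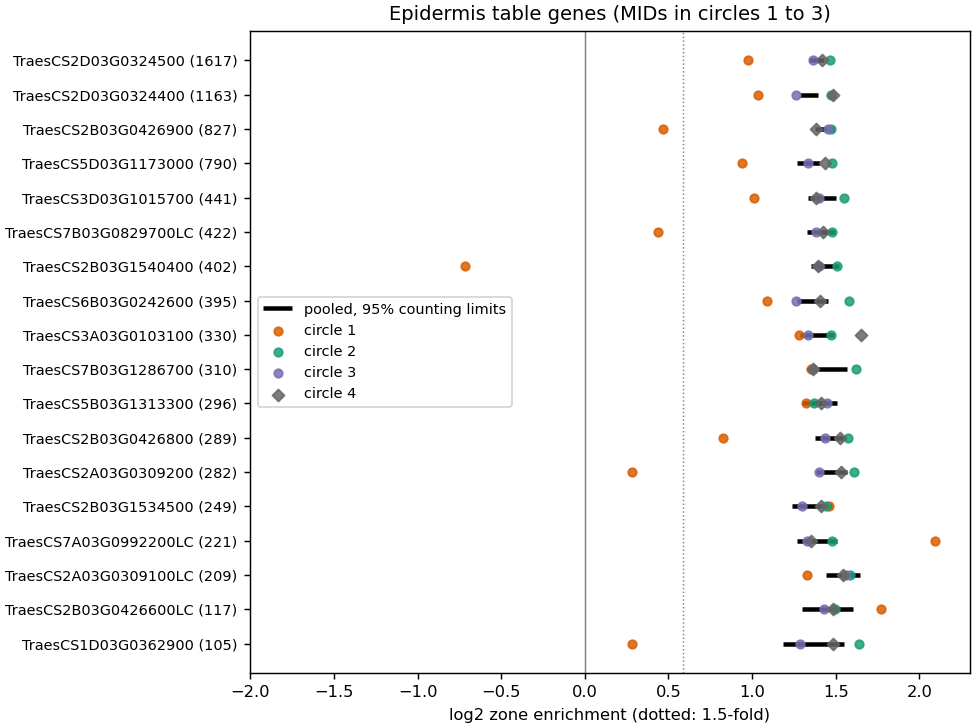
Log2 zone enrichment (x) of each of the 18 epidermis table genes (y, with its MIDs in circles 1 to 3). Black bars are pooled values with 95% counting limits and points are single circles. Points of circles 2, 3 and 4 lie between 1.26 and 1.65, and those of circle 1 spread from -0.72 to 2.09.

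Across all genes, direction was shared by all 3 circles for a minority. Of the 7816 genes tested, 1126 were higher in the zone in all 3 circles (14.4%), 1827 were lower (23.4%) and 4863 were mixed, and the median gene had -0.06. The size rule of at least 1.5-fold in each circle kept 131 genes on the high side (1.68%) and 165 on the low side (2.11%). These 131 genes gave 1.82% of the MIDs in the zone and 0.407% of those inside, and they had a median enrichment of 1.25. After subtraction of the density in the ring outside, 397 and 486 genes passed instead, of which 101 and 137 were among the 131 and the 165. Of 254 genes past 1.5-fold in both circles 2 and 3, 131 were past it in circle 1 too, 221 were higher there and 33 were not. Across 7547 genes with zone MIDs in each circle, Spearman's rho of the enrichment was 0.31 between circles 2 and 3 and 0.19 between circle 1 and either, and since genes are not independent and share a library this is a description. At the minimum itself, the 76 genes with exactly 100 MIDs ran from -1.07 to 1.21 and the 77 genes with 99 MIDs, just outside the rule, from -1.41 to 1.29 where they had any zone MID.

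Circle 4 gives the same measure in a section that had no part in choosing genes. Of the 131 genes, 130 were higher in its zone and 127 were at least 1.5-fold higher, whereas 44.6% of the 7813 genes tested with a MID there were higher and 7.18% were past that fold. The exception was TraesCS2D03G0883100, with 13 of 52 MIDs in the zone (-0.18). Of the 165 genes on the low side, 146 were lower in circle 4 and 114 were at least 1.5-fold lower, beside 55.4% and 14.1% of all genes. The zone's genes were therefore largely those of circle 4 as well, more so on the high side than on the low side.

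**Figure D4:**
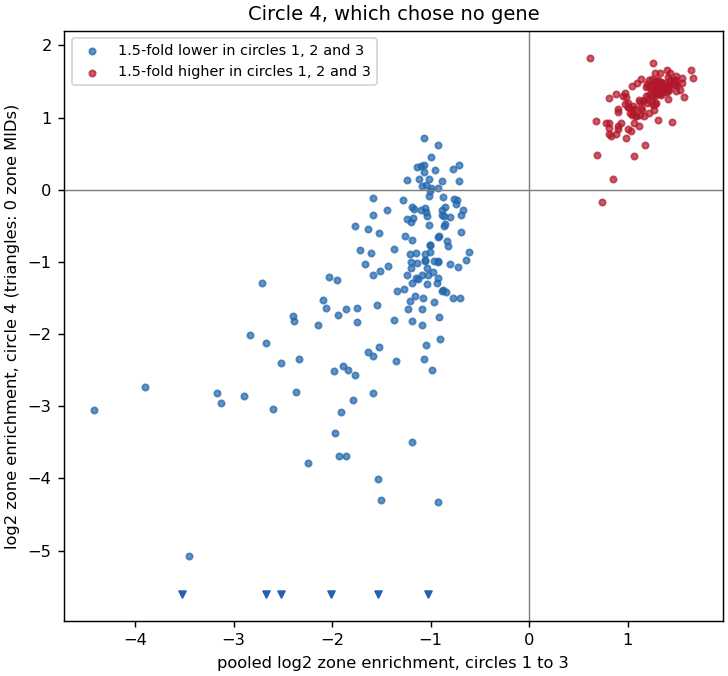
Log2 zone enrichment in circle 4 (y) against the pooled value of circles 1 to 3 (x) for the 131 genes at least 1.5-fold higher and the 165 at least 1.5-fold lower in circles 1, 2 and 3. Triangles are 6 genes with no MID in the zone of circle 4. All but 1 of the genes on the high side lie above 0, and 146 of those on the low side lie below it.

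The 10 genes with the highest enrichment have no name in the sources used here. TraesCS5A03G0692200 led with 4 of 5, 50 of 54, 45 of 54 and 73 of 88 MIDs in the zones of circles 1 to 4, a pooled value of 1.66 [1.53, 1.75]. TraesCS5D03G0659700 had 7 of 10, 50 of 57, 97 of 112 and 73 of 82 MIDs there, at 1.64. TraesCS3A03G1085200, TraesCSU03G0024000 and TraesCS7A03G1125900 followed the same course, with 80.4%, 80.5% and 79.6% of their MIDs in the zone over circles 1 to 3. TraesCS4A03G0657700 differed in where it was found. It had 147 MIDs in circle 1, 98 in circle 2 and 23 in circle 3, and 65.3%, 85.7% and 56.5% of them lay in the zone. The last 4 were TraesCS2A03G0309100LC, TraesCS7B03G1286700, TraesCS5B03G0727600 and TraesCS3B03G0134900, at 1.49 to 1.55.

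By number of MIDs the zone looked quite different. The 10 genes with the most zone MIDs, led by TraesCS7D03G0266900LC with 32347 and TraesCS1A03G0000500LC with 22261, made up 10.1% of the MIDs of the zone and 8.20% of those inside. They were higher in the zone in all 3 circles, but only by 0.21 to 0.30. For TraesCS7D03G0266900LC the share in the zone was 29.1%, 31.5%, 32.3% and 32.1% in circles 1 to 4, and its density was still higher outside, at 444 per 10000 positions in the ring against 370 in the zone and 318 inside. All 10 were denser in the ring than in the zone, the reverse of the epidermis list at 38.1 against 70.6. Being higher in the zone by a small amount was therefore shared by genes that were most dense off the tissue, whose part was not tested, and the 1.5-fold rule left all 10 out.

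Genes with a protein name come mainly from cluster 1 of the study's single-cell atlas, which was made from other libraries. The study's marker table labels this cluster epidermis. Genes of the study's cluster 7, also taken there as epidermis, were not analysed here as a list beyond the 18 epidermis table genes. Of its genes listed in the copy used here, 99 had at least 100 MIDs, of which 69 were higher in the zone in all 3 circles, 6 were lower and 43 were at least 1.5-fold higher. For all genes tested these shares were 14.4%, 23.4% and 1.68%. The median was 0.88 and the list as a whole had 22768 zone MIDs where 12860 were expected. Of the epidermis orthogroup genes, ranked by the study across species, 40 were tested, of which 25 were higher and 2 lower, with a median of 1.24. They are no separate set, as they include 10 of the 18 epidermis table genes and 56 genes of cluster 1. For the 44 of them conserved in 3 or 4 species the sum gave only 0.32 [0.27, 0.38]. Of these, 7 were tested, of which 2 were higher in all 3 circles and 0 were at least 1.5-fold higher. The cluster 1 and orthogroup tables are held here only in part.

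Structural wall proteins were among the strongest. Glycine-rich proteins of this kind are deposited in cell walls. TraesCS5D03G1173000, a glycine-rich cell wall structural protein 2-like gene that is also on the list of 18, had 54 of 120, 208 of 267, 283 of 403 and 260 of 341 MIDs in the zones of circles 1 to 4, at 1.34. TraesCS5B03G1313200 and TraesCS5D03G1172900, both named glycine-rich cell wall structural protein 1, had 1.41 [1.27, 1.53] and 1.29 [1.12, 1.44]. All 3 members tested passed 1.5-fold in each circle, as did 1.68% of all genes tested. They lie beside others of the same kind: on chromosome 5D the first and the third have neighbouring IDs, and on 5B the second neighbours TraesCS5B03G1313300, which is on the list of 18 and had 1.41.

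Chitinases and other defence proteins were also higher, in 5 of the 6 members tested, each by at least 1.5-fold. Of all genes tested, 14.4% were higher and 1.68% were at least 1.5-fold higher in each circle. Agglutinin isolectin 3-like TraesCS7D03G1077100, a lectin that binds chitin, had 58 of 91, 192 of 229, 234 of 323 and 262 of 335 MIDs in the zone, at 1.46 [1.40, 1.53]. The 3 copies of a gene for a pathogenesis-related protein PRMS-like, on chromosomes 6A, 6B and 6D, had 1.40, 1.29 and 1.24. Barwin-like TraesCS2A03G1272500, of another family of chitin-binding defence proteins, had 0.88 [0.59, 1.12]. It had 53, 6 and 9 MIDs in the zones of circles 1 to 3 and 75, 3 and 7 inside, so its value rests mainly on circle 1. Chitinase CLP-like TraesCS3D03G1015700, which is on the list of 18 and not in cluster 1 as held here, had 35 of 74 MIDs in the zone of circle 1, 159 of 194 in circle 2, 127 of 173 in circle 3 and 134 of 182 in circle 4, at 1.42 [1.33, 1.5].

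The benzoxazinoid glucosidases showed that close relatives can differ in place. TraesCS2D03G1268900 had 651 of 1432 MIDs in the zone of circle 1 (45.5%), 1209 of 1915 in circle 2 (63.1%), 987 of 1508 in circle 3 (65.5%) and 1268 of 2042 in circle 4 (62.1%), at 1.14 [1.11, 1.17]. TraesCS2B03G1500200, of the same name, had 31.9%, 38.8%, 45.2% and 39.7% of its MIDs there, at 0.55 [0.51, 0.59]. TraesCS2B03G1501600, also of that name but listed by the study among cortex orthogroups, had 23.4%, 23.2%, 37.2% and 25.2%, at 0.06 [0.00, 0.12]. In each circle the shares of the 3 genes kept this order. With 4855, 8006 and 6308 MIDs these are among the deepest of the named genes, and their counting limits do not overlap.

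Enzymes of secretion, redox and the wall followed. Apyrases hydrolyse nucleoside phosphates, and the probable apyrase 3 genes TraesCS2D03G0039600 and TraesCS2A03G0038300 had 1.43 [1.30, 1.53] and 1.16 [1.05, 1.26]. The 3 genes for the proteolipid subunit of the vacuolar proton pump had smaller values. Those on 4B and 4D were higher in all 3 circles, at 0.29 and 0.20, and that on 1A was mixed, at -0.06. Both glutathione S-transferases tested were higher in all 3 circles, as were 14.4% of all genes tested. Their values were 1.26 for TraesCS1D03G0222800 and 0.70 for TraesCS6D03G0283500. These enzymes attach glutathione to reactive compounds. Of the wall polysaccharide enzymes, a probable polygalacturonase, TraesCS1B03G1040000, which cuts pectin, had 1.25 [1.05, 1.42] and a beta-1,2-xylosyltransferase XAX1-like gene, TraesCS7A03G0546800, had 1.08 [0.79, 1.31]. The 2 GDP-mannose 3,5-epimerase 1 genes on 1B and 1D, which supply sugar precursors, had -0.06 and -0.08 and were mixed.

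**Figure D5:**
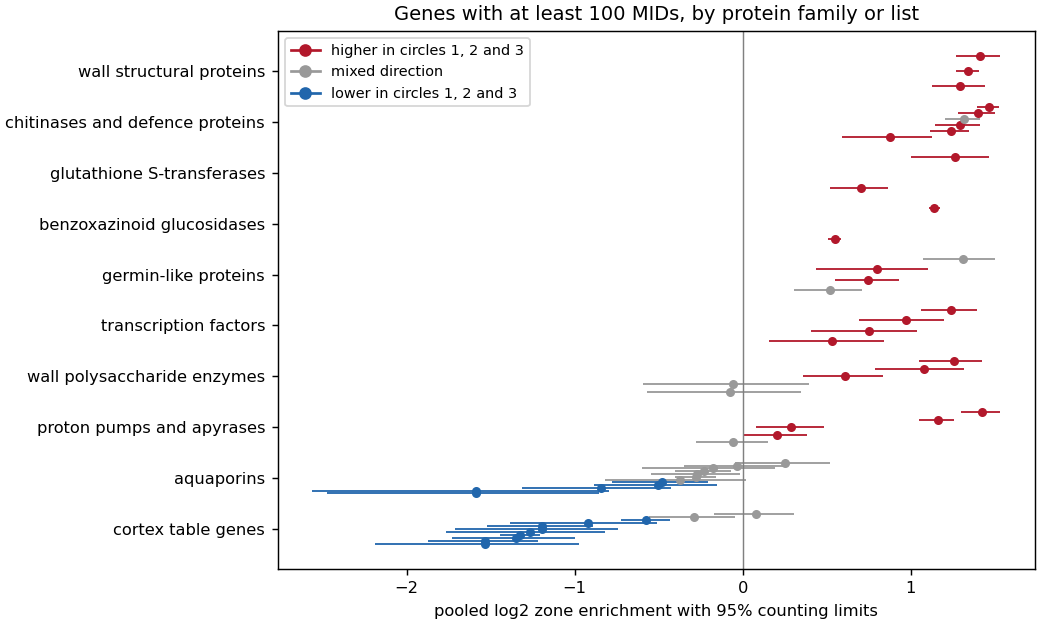
Pooled log2 zone enrichment with 95% counting limits (x) of each gene with at least 100 MIDs in the named protein families of epidermis cluster 1 and in the cortex table list (y). Red genes were higher and blue genes lower in all 3 circles, and grey genes were mixed. Wall structural proteins and chitinases lie furthest right, while 11 of 12 aquaporins lie below 0.

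Expansins, which loosen walls as cells grow, were mostly too shallow for the gene rule. Only expansin-B2-like TraesCS1B03G0651500 of 23 listed was tested, with 25 of 60, 21 of 35, 46 of 67 and 25 of 48 MIDs in the zone, at 1.11 [0.89, 1.30]. All 23 together had 297 zone MIDs where 130 were expected (1.19 [1.08, 1.29]). Of 27 peroxidases 2 were tested, and the cationic peroxidase SPC4-like gene TraesCS2A03G1334700 had 1.07 [0.91, 1.21]. The sum of the 27 was 438 zone MIDs where 217 were expected. For 12 transporters of phosphate, ammonium, nitrate and sugars none reached 100 MIDs, yet their sum was 110 where 41.5 were expected (1.41 [1.23, 1.55]). Circle 1 gave 75 of the 110, and the values were 1.49, 1.40 and 1.11 in circles 1 to 3. Expansin-A31-like TraesCS4B03G0721800 had 0 MIDs in the 3 circles and expansin-A17-like TraesCS7D03G0043000 had 1, so their place could not be measured at this depth.

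Regulators were few at this depth. All 4 tested regulator genes of cluster 1, a RAP2-13-like gene and the IAA13-like genes, were higher in all 3 circles, as were 14.4% of all genes tested. RAP2-13-like TraesCS7D03G0410800, of the ethylene response factor family, had 35 of 68, 31 of 40, 52 of 82 and 37 of 48 MIDs in the zone, at 1.24 [1.06, 1.39]. Its copies on 7B and 7A, which are not on the list, had 1.24 and 1.17, so that the set of 3 passed 1.5-fold. The IAA13-like genes on 5B, 5A and 5D, whose products repress auxin responses, had 0.97, 0.75 and 0.53.

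Copies on the 3 subgenomes can be followed by protein name. A set was 2 or more named genes with at least 100 MIDs and the same protein name, on 2 or more subgenomes of a chromosome group. Only sets with a gene of cluster 1 or a gene at least 1.5-fold higher in all 3 circles were kept, which left 24. They were thus partly chosen on being higher. In 11 sets every member was higher in all 3 circles, in 6 only some were and in 7 none was. Named genes come mainly from epidermis tables, and 36 of the 57 genes in these sets were higher, against 14.4% of all genes tested. Sets of higher genes are thus common by the choice of names and of sets. The PRMS-like, RAP2-13-like and subtilisin-like protease SBT5.3 sets passed 1.5-fold with all 3 copies, the last at 1.21 to 1.29. In ID order, 18 of the 131 genes formed 9 pairs of near neighbours, the marker pair among them. That is 13.7% of the set, whereas the 165 genes on the low side held 1 such pair (1.21%). The share over all genes tested was 35.9%, but it rises with the number of genes in a set and is no like reference. Whether nearness is a trait of the 131 genes was not tested. By subgenome the 131 genes split into 38 on A, 46 on B and 45 on D chromosomes, close to the shares of all genes tested.

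Aquaporins of the epidermis cluster lay mostly below 0. These channels carry water across the plasma membrane (PIP) or the vacuolar membrane (TIP). Of 12 tested, none was higher in all 3 circles and 5 were lower, beside 14.4% and 23.4% of all genes tested, and the median was -0.33. The probable aquaporin PIP2-6 genes TraesCS2D03G0126300 and TraesCS2B03G0175100 had 13 of 160 and 11 of 131 MIDs in the zone, both at -1.59. The deepest, aquaporin TIP1-1 TraesCS4B03G0809400, had 15.9%, 26.5%, 30.9% and 24.2% of its MIDs in the zones of circles 1 to 4. Its pooled value of -0.28 [-0.40, -0.16] rests on circle 1, which gave 1304 of its 2136 MIDs, and it was 0.02 without it. For the 15 aquaporins together the value was below 0 in each circle, at -0.40, -0.24, -0.17 and -0.29. Their density was highest at a relative radius of 0.55 to 0.60 in circle 1, at 70.6 per 10000 positions, and at 0.75 to 0.80 in circle 4, at 27.3, but in the small innermost steps of circles 2 and 3, at 20.5 and 19.8. From 0.80 to 0.85 to the step of 0.95 to 1 it went from 46.2 to 20.3, 15.4 to 7.38, 13.8 to 5.63 and 26.6 to 7.47 in circles 1 to 4.

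Circle 1 differed in which genes its zone held, epidermal lists and others alike. Per 10000 zone MIDs the list of 18 gave 10.5 [9.40, 11.7] in circle 1 and 58.4, 49.3 and 59.6 in circles 2, 3 and 4. Germin-like proteins, which include oxalate oxidases of the wall, gave 12.5 [11.3, 13.8] in circle 1 and 0.807, 0.377 and 1.45 in the others. Peroxidases gave 9.93 against 1.10, 1.13 and 1.43, transporters 2.36 against 0.352, 0.295 and 0.470, and aquaporins 20.9 against 6.56, 3.98 and 8.47. Wall structural proteins were level at 6.13, 6.15, 6.10 and 6.91. Circle 1 thus had fewer MIDs of the list of 18 and more of several families of cluster 1, and in each of these families the 3 other circles lay on the same side of it. Lists of other cell types were higher there too. Genes of the xylem cluster 10 gave 142 in the zone of circle 1 and 68.9, 73.5 and 73.9 in the others, those of the endodermis and phloem cluster 11 gave 141 and 67.8, 89.5 and 81.1, cortex orthogroup genes 37.4 and 11.4, 18.3 and 13.7, and root cap orthogroup genes 25.8 and 10.5, 6.62 and 9.21. The difference was therefore not particular to epidermal genes. It was also seen in the inner part of circle 1, where germin-like proteins gave 5.33 per 10000 MIDs against 0.314, 0.227 and 0.441. It was also low in G1/S genes of dividing cells, with 10.2 in the zone against 22.2, 64.8 and 40.3. The sources used here do not say how far each section lay from the root tip, and the part of circle 1's lower zone density in these differences was not tested.

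Short lists of genes of other cell types were low in the zone. Like the epidermis list, the table lists were kept by the study for their pattern on sections of these chips and are no independent evidence. Of 11 cortex table genes tested none was higher and 9 were lower, beside 14.4% and 23.4% of all genes tested, with a median of -1.20. TraesCS2B03G1383800LC, the deepest, had 73 of 443 MIDs in the zone of circle 1 (16.5%), 46 of 820 in circle 2 (5.61%), 388 of 3362 in circle 3 (11.5%) and 101 of 1646 in circle 4 (6.14%). The 8 genes of provascular cells had 15 of 711 MIDs in the zone and the 4 xylem table genes 11 of 255. The 5 endodermis table genes had 20 of 191 and the 5 phloem table genes 2 of 68. Each share was below the 26.8% of all genes. The endodermis value rests mainly on circle 1, with 11 of 128 MIDs in its zone, while circle 2 had 7 of 26 (-0.06). Of the pericycle genes plotted by the study, 5 genes had 1 of 40. The broader cluster lists of inner cell types lay much nearer to all genes. Of 122 genes tested of the xylem cluster 10, 18 were higher and 35 lower (-0.07 [-0.09, -0.04]), and of 116 of the endodermis and phloem cluster 11, 15 were higher and 37 lower (-0.13 [-0.15, -0.11]). Orthogroup genes had sums of -0.19 for pericycle, -0.23 for xylem, -0.31 for cortex, -0.40 for endodermis and -0.60 for phloem. Medians over the genes tested were 0.03 for pericycle (10 genes), -0.24 for xylem (12), -1.19 for cortex (12), -0.40 for endodermis (22) and -0.44 for phloem (12). For cortex, TraesCS2B03G1501600 alone gave 46.1% of the MIDs, and of the 12 genes tested none was higher and 8 were lower. The 19 root cap table genes had 0 MIDs in the 3 circles. Root cap orthogroup genes were nevertheless higher, with 6 of 7 tested higher in all 3 circles and a median of 1.11, but 2 of the 7 also stand in the epidermis cluster 1 list, expansin-B2-like TraesCS1B03G0651500 and glutathione S-transferase 4-like TraesCS1D03G0222800. Of 20 G1/S genes 19 were mixed, as were 4863 of all 7816 genes tested. The sum of the G1/S genes gave 0.74 in circle 1 but -0.33, -0.03 and -0.22 in circles 2, 3 and 4.

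The 10 genes most depleted from the zone peaked at different depths inside it. Over circles 1 to 3 their highest density lay below a relative radius of 0.30 for 6 of them and at 0.35 to 0.50 for TraesCS5D03G0227200, TraesCS5A03G1163200LC, TraesCS7B03G0252900 and TraesCS1B03G0585500, while the provascular table list peaked at 0.05 to 0.10 and the endodermis table list at 0.45 to 0.50. TraesCS5D03G0346300, a provascular table gene, had 2 of 26, 1 of 38, 0 of 170 and 3 of 88 MIDs in the zones of circles 1 to 4, a pooled value of -4.42 [-6.69, -2.89], which is 21.3-fold lower. TraesCS1B03G0051800, of the same list, had -2.83. TraesCS5A03G0363500 had 2 of 66, 2 of 53, 4 of 205 and 1 of 119, at -3.45. TraesCS5B03G0221000 was the most even, with 6 of 241, 9 of 279, 5 of 144 and 12 of 329, at -3.13 [-3.83, -2.51]. TraesCS5D03G0227200 had 2 of 171 and 2 of 165 in circles 1 and 2 but only 12 MIDs in circle 3, with 3 in the zone, so that it missed the size rule there. The other 5 of the lowest 10, TraesCS7D03G0195000, TraesCS1B03G0585500, TraesCS5A03G1163200LC, TraesCS2B03G1542000 and TraesCS7B03G0252900, lay between -3.90 and -2.71. Genes named as defence proteins were not all higher in the zone. The defensin Ec-AMP-D2-like genes TraesCS4D03G0748700 and TraesCS4B03G0840800, of a family of small antimicrobial proteins, had 17 of 390 and 28 of 365 MIDs in the zone, at -2.60 and -1.79, and both were lower in all 4 circles. The study gives both as orthologues of an Arabidopsis pericycle marker and used them to annotate its pericycle cluster, so by that annotation they belong to an inner layer.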

How the data were processed

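The authors ran the STOmics Analysis Workflow on the reads of each chip. Their deposited tables give counts of MIDs for each gene at each spot, with the part of these counts assigned to exons. The deposited counts are raw, unbinned and not restricted to tissue. The genome build and aligner settings of the spatial workflow are not given in the sources read. The chip of the distal root region held 77515877 MIDs of 96646 gene IDs, 77.1% of them exonic, and that of the root cap region, whose sections were not used here, held 28281662. Organelle rows (0.00494%) were left out.

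MIDs were counted per gene in the zone and in the inner part of each circle with Python 3.11 code written for this purpose, as given in the report, and the steps were tested on simulated data. A gene was tested if it had at least 100 MIDs in the 3 circles. Circle 4 was added after the data had been seen. The members, lists and named genes were chosen with earlier results of these data known. Genes named are the markers, the 18 epidermis table genes, the 10 highest, the 10 lowest and the 10 with the most zone MIDs, and the 3 deepest of each list, with further members and pairs chosen after their values were seen. Too many genes lay at the minimum of 100 MIDs to be named. Names come from the study's tables, because the gene table at hand matched none of the IDs, and no sequence was at hand. Alternatives changed the zone's inner edge, the radii, the counts, the minimum, the reference genes, the inner spots, an off-tissue correction and the circles used.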

Additional observations from a re-analysis of the deposited data

How the results depend on the processing

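With 1 library and sections that are not replicates, these values have counting limits only, and no alternative tests whether they would recur in another root. The zone's share of MIDs (26.8%) became 35.2% and 18% with the inner edge at 0.80 and 0.90, 27.5% and 25.6% with radii 5% smaller and larger, 26.4% with exon counts, 26.2% without the 100 deepest genes, 26.4% with high-confidence genes only, 35.8% with inner spots from 0.50 only, 24.5% after subtraction of the off-tissue density and 26% to 27.9% without 1 circle. In the same order, the enrichment of the 18 epidermis table genes (1.40) became 1.13, 1.64, 1.27, 1.41, 1.42, 1.43, 1.41, 1.09 and 1.82, with 1.33 to 1.44 without 1 circle. That of cluster 1 (0.82) became 0.74, 0.90, 0.82, 0.81, 0.86, 0.86, 0.82, 0.54 and 1.5, with 0.76 to 0.93. That of the orthogroup genes (0.87) became 0.74, 1.01, 0.79, 0.90, 0.89, 0.90, 0.89, 0.67 and 1.36, with 0.83 to 0.90. None of the 18 genes had a value below 0 under any setting (1.02 to 1.87).

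Counts of genes depend more on the settings. The 131 genes on the high side became 245 with a minimum of 50 MIDs, 17 with 500, 79 with inner spots from 0.50 only and 397 after subtraction of the off-tissue density (101 of the 131 among them), and 115 to 159 without 1 circle. The 165 on the low side became 470, 15, 82 and 486 under these settings, 102 and 249 with the edge at 0.80 and 0.90, 106 with smaller radii, and 167 to 200 without 1 circle. The 1126 genes higher in all 3 circles became 1864 and 226 with minimums of 50 and 500 MIDs, and 1056 to 1413 without 1 circle. The 1827 lower genes became 3291 and 454, 1184 with inner spots from 0.50 only, and 1744 to 2053 without 1 circle. Minimums change the number of genes tested. The subtraction kept the 7816 genes and the spots, and the cause of its change was not tested, nor that of the others.

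Of 1783 values of 130 named genes, 9 changed sign in genes whose main limits excluded 0. Sign changes in genes whose limits included 0 were not counted. TraesCS2B03G1501600 became -0.18 with the edge at 0.90, -0.28 with larger radii, -0.30 with inner spots from 0.50 only and -0.14 to 0.23 without 1 circle, the lowest without circle 3. The aquaporins TraesCS4A03G1016800 and TraesCS4B03G0809400 became 0.098 and 0.022 without circle 1, the highest of ranges from -0.33 and -0.40. After subtraction of the off-tissue density, TraesCS4A03G1016800 became 0.032, TraesCS7D03G0801800 0.16 and TraesCS1A03G0676400 0.26. The zone was set against the inner part of the same circle, but no paired test was made because sections of 1 library are not replicates. Depth limits the genes: 58451 of 66267 with a MID had fewer than 100.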
